A study of Brassica napus with 6 samples.

Results

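Cinnamoyl-CoA reductases (CCRs) turn the CoA esters of hydroxycinnamic acids into aldehydes with NADPH, the first step that belongs to the making of monolignols, the building units of lignin. Lignin stiffens xylem vessels and forms part of the barrier around the root's vascular cylinder. In Arabidopsis thaliana, CCR1 is the enzyme of developmental lignification and CCR2 is best known for its response to pathogens. The other genes described here are sequence relatives of these enzymes in the same family of NAD(P)-binding reductases, and no substrate is assigned to them here.

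The listed genes were CCR2, AT5G14700, AT2G33590, AT2G33600, AT2G02400 and AT1G76470, 6 in all. They were selected on family name together with earlier results of these same arrays, in which AT5G14700 had stood out for its difference between the treatments. Their differences are therefore given as a description, without a test. A gene was taken where the platform annotation gave a probe set with that gene alone, which held for 4 of the 6, out of 13350 genes so annotated. AT2G33590 and AT2G33600 had no such entry in the annotation used here and are named only. Each of the 4 had 1 probe set, so no choice by brightness was needed. The annotation lists CCR2 by symbol, and its Entrez number lies 1 above that of AT1G80810 and 3 below that of AT1G80850, which places it at the CCR2 locus (AT1G80820) and not at the RNA-binding protein that has shared the symbol.

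Oilseed rape (Brassica napus) of the cultivar Nourin No.16 was grown in hydroponics, and roots were sampled after 2 days with 10 µM cadmium chloride, which both groups received. One group of 3 biological replicates had cadmium alone (the Cd arrays) and the other, also of 3, had cadmium together with reduced glutathione (GSH), given in the labels as 100 mM (the Cd plus GSH arrays). Plant age is given as 4 weeks after germination in one label and as 2 to 3 weeks in another, 6 plants shared a container, and how plants were pooled into a replicate was not given. Plants without cadmium were not analysed here. RNA was hybridised to an array of Arabidopsis probes, so a signal is that of oilseed rape transcripts on the Arabidopsis gene's probes, copies of a gene are not separated, and a low signal may reflect mismatched probes. The oilseed rape RefSeq table (assembly Da-Ae) lists 2 genes under the name CCR2 and none under the other loci. The match was by name alone, so it does not show which protein the 2 encode or that the other genes lack copies. In whole roots, fewer cells of a type and less RNA per cell cannot be told apart.

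Values are the deposited log2 signals. Of 22746 probe sets tested, 2428 ranged by more than 0.01 over the 6 arrays and are called varying here. The other 89.3%, called constant, ranged by 0.01 or less and carry next to no information on a response. Signal over background was judged against 27 control probe sets for bacterial genes, the highest of which averaged 6.05. In the labelled tissue check, 2 of 16 root markers were matched, the root hair expansins EXPA7 and EXPA18, with mean signals of 6.50 and 6.65, and 2 of 9 green tissue markers, LHCB4.1 at 6.07 and RCA at 6.04. Of these, only RCA failed to exceed 6.05, and all but EXPA18 were constant. With so few markers matched and a green tissue marker above 6.05, the check cannot settle the tissue.

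AT5G14700 had the widest range of the 4 genes. On the Cd arrays its signal was 8.01, 6.50 and 6.39 in replicates 1, 2 and 3, and on the Cd plus GSH arrays it was 5.99, 6.33 and 6.10. Cd replicate 1 was far above all others, and the lowest Cd array lay above the highest Cd plus GSH array by 0.06, so the groups did not overlap. The Cd mean was 6.97 ± 0.91 (SD, n = 3), and the Cd plus GSH mean was 6.14 ± 0.18 (SD, n = 3). The difference, Cd plus GSH minus Cd, was -0.83 on the log2 scale with a limma SE of 0.46, and the difference of the group medians was -0.40. Measured from the Cd mean, the Cd plus GSH arrays lay at -0.98, -0.64 and -0.86. Of the 3 Cd plus GSH arrays, replicate 1 lay below that 6.05 of the brightest bacterial control.

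Much of that difference came from a single array. Cd replicate 1 exceeded the next array, Cd replicate 2, by 1.51 on the log2 scale, or 2.85-fold. The other 5 arrays spanned 0.51. Leaving out each array in turn gave differences from -1.12, without Cd replicate 3, to -0.30, without Cd replicate 1. Without any single Cd plus GSH array the difference stayed between -0.92 and -0.75. Since the groups did not overlap, the sign had to be negative whichever array was left out, so it adds no support.

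CCR2 gave a nearly level signal. It was 6.47, 6.51 and 6.47 on the Cd arrays and 6.52, 6.49 and 6.49 on the Cd plus GSH arrays, all above the highest bacterial control set. The groups overlapped, since Cd replicate 2 lay above Cd plus GSH replicates 2 and 3. The Cd mean was 6.48 ± 0.02 (SD, n = 3), and the Cd plus GSH mean was 6.50 ± 0.01 (SD, n = 3), a difference of 0.016 with a limma SE of 0.019. That difference was close to the replicate SDs, 0.019 over the Cd arrays and 0.014 over the Cd plus GSH arrays. Leaving out each array moved it between 0.0080 and 0.027. The whole range of CCR2 over the 6 arrays was 0.044, and 2147 of the 2428 varying probe sets ranged more widely.

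The remaining pair of matched genes carried no information on the treatment. AT2G02400 stood at 6.29 on each of the 6 arrays, above the highest bacterial control set, and AT1G76470 stood at 6.04 on each, not above it. Both were constant to the rounding of the deposited values. A constant value here does not show that the transcript was steady in the roots.

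**Figure D1:**
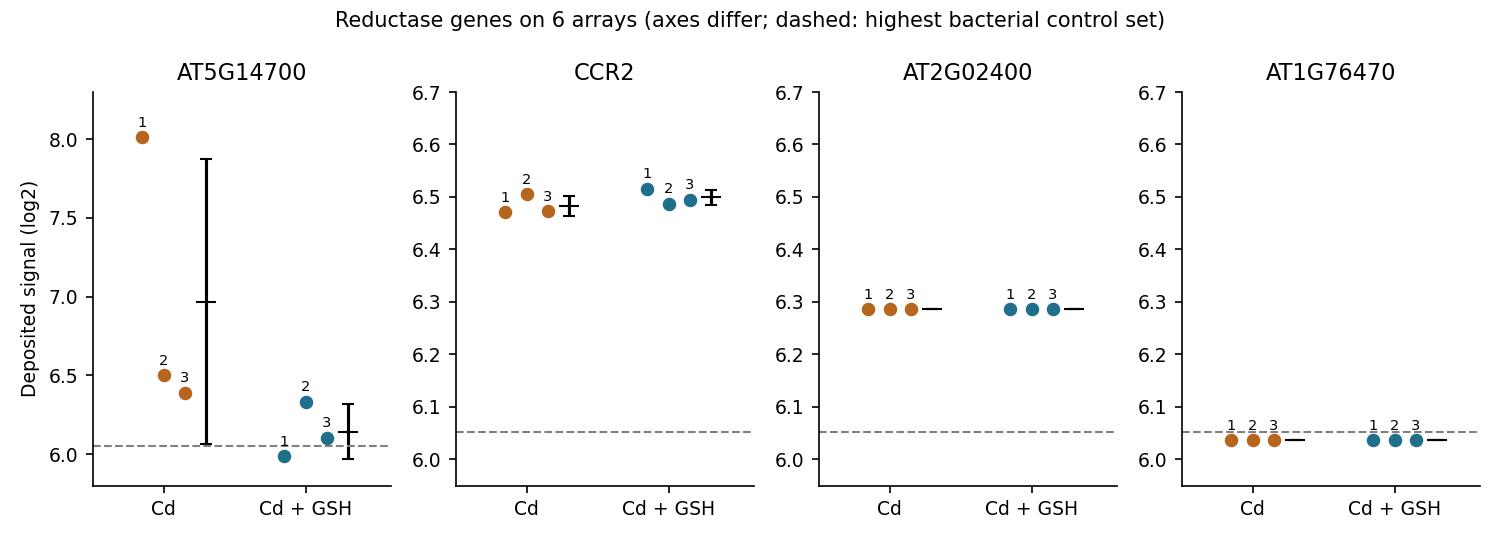
Log2 signal of the 4 matched reductase genes by treatment; each point is an array with its replicate number, the bar beside each group is the mean with the SD (n = 3), and the dashed line is the highest bacterial control set at 6.05. AT5G14700 is drawn on a wider axis and has Cd replicate 1 at 8.01, while CCR2 stays near 6.5 and AT2G02400 and AT1G76470 are flat.

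**Figure D2:**
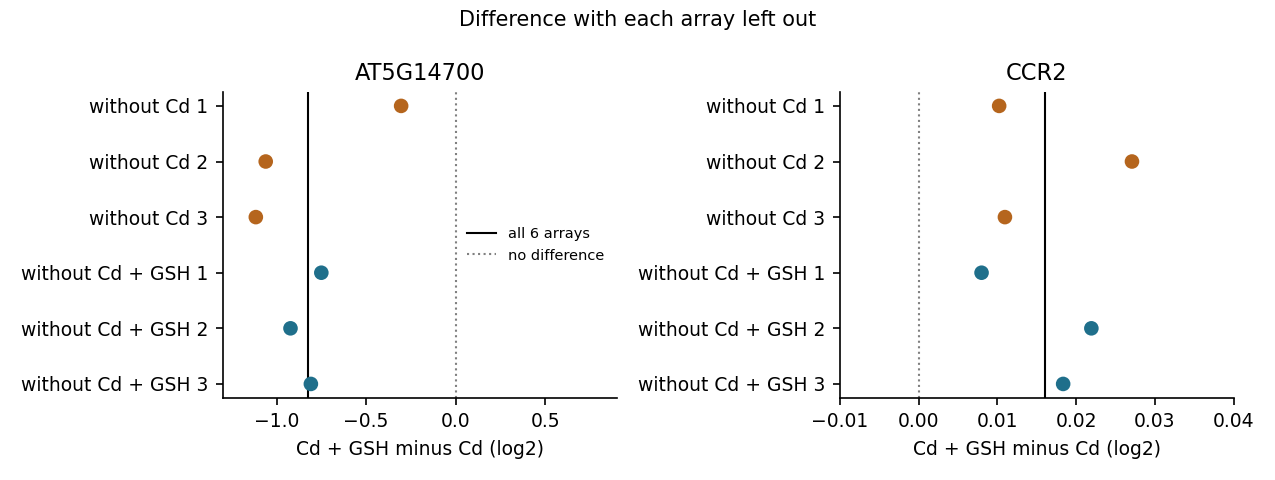
Difference in log2 signal, Cd plus GSH minus Cd, for AT5G14700 (left) and CCR2 (right) with each array left out in turn; the solid line is the value from all 6 arrays and the dotted line is 0, and the axes have different scales. AT5G14700 moves from -0.83 to -0.30 without Cd replicate 1, and CCR2 stays between 0.0080 and 0.027.

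Across the array as a whole, limma with Benjamini-Hochberg adjustment called 0 of the 2428 varying probe sets (0.0%), with 312 at an unadjusted p under 0.05. Groups lay fully apart, every array of one above every array of the other, in 455 of them (18.7%), and in 239 (9.84%) the Cd plus GSH arrays were the lower ones. Of the 2 varying reductase genes, 1 had groups that did not overlap. Since AT5G14700 was taken up with this contrast known, nothing is read from that count. The median difference over all varying probe sets was -0.0007, and 50.7% had a negative difference. Centring each array on its median left 516 probe sets with groups apart and turned the split from 216 higher and 239 lower with GSH to 336 higher and 180 lower. AT5G14700 was at -0.81 and CCR2 at 0.028 under that scaling.

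The spread of AT5G14700 lay mostly in the cadmium-only group, and there in Cd replicate 1. The other Cd arrays, at 6.50 and 6.39, lay closer together than the Cd plus GSH arrays, which ran from 5.99 to 6.33. Its SD over the Cd arrays was larger than that of 99.7% of varying probe sets, and its SD over the Cd plus GSH arrays was larger than that of 95.3%. For CCR2 the corresponding shares were 21.4% and 17.4%. Only 16 varying probe sets had a wider range over the 6 arrays than AT5G14700, and 3 had a larger gap between the highest array and the next. Since AT5G14700 was listed after it had stood out on these same arrays, its ranks are descriptive and add no support.

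Cd replicate 1 was also the highest array for other wide-ranging probe sets. The counts given next include AT5G14700 itself. Among the 99 varying probe sets that ranged by over 1 on the log2 scale, Cd replicate 1 was highest in 46 and Cd plus GSH replicate 1 in 22. An array exceeded the next by over 1 in 11 probe sets, and in 10 of these it was Cd replicate 1. Over all varying probe sets the array medians ran from 6.26 to 6.29, with Cd replicate 1 at the upper end. The control signal for the 3′ end of actin minus that for its 5′ end, which can reflect how intact the RNA was, was 1.29, 1.25 and 1.19 on the Cd arrays and 1.51, 1.48 and 1.37 on the Cd plus GSH arrays. It was thus lower on every Cd array, and its part in the AT5G14700 difference was not tested.

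**Figure D3:**
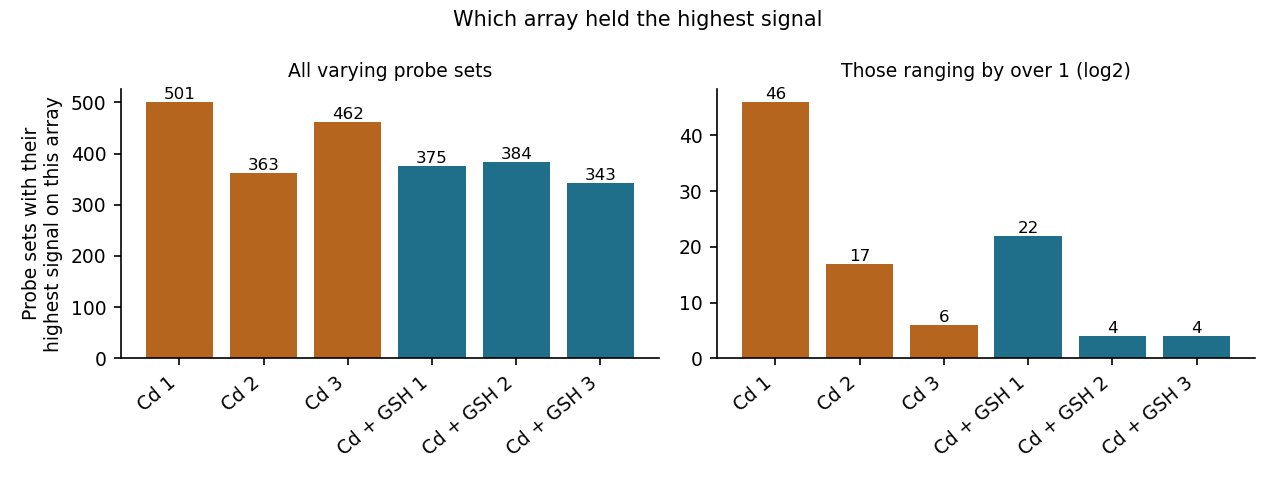
Number of varying probe sets whose highest log2 signal fell on each array, over all 2428 (left) and over the 99 that ranged by over 1 (right). Cd replicate 1 holds 501 of the 2428 and 46 of the 99.

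The named genes most like AT5G14700 were taken as the 3 with the highest Pearson correlation over the 6 arrays, among 1177 varying genes. They were AT4G24110 (r = 0.9997), AT1G67920 (r = 0.9995) and CML38 (r = 0.996), the last a calmodulin-like calcium-binding protein. Over the 5 arrays without Cd replicate 1 the correlations were 0.998, 0.995 and 0.941. These points share their arrays and groups, and the correlations are descriptive.

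Each of the 3 was highest on Cd replicate 1, which follows from their being picked for likeness to AT5G14700. CML38 had signals of 7.09, 6.20 and 6.08 on the Cd arrays and 5.86, 6.00 and 5.97 on the Cd plus GSH arrays. None of its Cd plus GSH arrays exceeded 6.05, so no size is given for its difference. AT4G24110 and AT1G67920 ranged by 0.42 and 0.41, less widely than AT5G14700, and differed by -0.17 (SE 0.09) each. On Cd plus GSH replicate 1, AT1G67920 was at 6.04 and did not exceed 6.05. The negative differences also follow from picking genes for likeness to AT5G14700. Without Cd replicate 1 these differences were -0.07 for AT4G24110 and -0.06 for AT1G67920. In all, 32 of the 1177 genes had a correlation above 0.9 with AT5G14700. That count is over all arrays, where Cd replicate 1 weighs heavily, and was not repeated without it.

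For CCR2 the 3 most alike genes were AT3G57950 (r = 0.967), AT5G18970 (r = 0.937) and the transcription factor WRKY22 (r = 0.924). Without Cd plus GSH replicate 1, the array on which each was highest, the correlations over 5 arrays were 0.956, 0.881 and 0.854. AT3G57950 and WRKY22 had group means under 6.05, with Cd and then Cd plus GSH at 5.90 and 5.96 for the first and 5.84 and 5.91 for the second. With a range of 0.044 in CCR2 itself, these likenesses concern very small movements. AT5G14700 and CCR2 did not share a pattern, with r = -0.64 over the 6 arrays.

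Around the reductases, 5 lists of the lignin and flavonoid pathways held 68 genes, of which 18 had a matched probe set. Of those, 16 were constant, and 0 of the other 2 passed limma's adjusted test in either direction. Of all tested probe sets, 89.3% were constant, and 0 of the 2428 varying ones were called. Nothing particular to the listed genes is therefore read from their being constant or not called. In the monolignol list 1 of 26 was matched, HCT, the hydroxycinnamoyltransferase upstream of CCR, which was constant at 6.91. CCR1 itself had no match, nor had the genes for the cinnamyl alcohol dehydrogenases that act on the aldehydes CCR makes. Of 17 further members of the reductase family 12 were matched and all 12 were constant, from 5.60 to 6.45, with 3 above the highest bacterial control set. These 3 were AT5G19440 at 6.45, AT5G58490 at 6.33 and AT4G30470 at 6.07. The flavonoid reductases DFR, at 6.02, and BAN, at 5.99, were among those not above it. The flavonoid branch and the lignin regulators had 0 matched of 5 and of 9.

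Lignin polymerisation, the step that joins monolignols in the wall, had 5 of 11 matched and 2 varying, both class III peroxidases. PRX72 had signals of 6.87, 6.60 and 6.57 on the Cd arrays and 6.50, 6.55 and 6.45 on the Cd plus GSH arrays. As for AT5G14700, the groups did not overlap and Cd replicate 1 was highest. Of all varying probe sets, 18.7% had groups that did not overlap, and 20.6% were highest on Cd replicate 1. The difference of PRX72 was -0.18 (SE 0.09), with an adjusted p of 0.475 in limma. Without Cd replicate 1 it was -0.08. PRX25 had 6.23, 6.17 and 6.18 against 6.25, 6.23 and 6.28, with overlapping groups. Its difference was 0.056 (SE 0.025), with an adjusted p of 0.444 in limma. PRX52, PRX66 and PRX71 were constant at 6.05, 6.32 and 5.96.

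**Figure D4:**
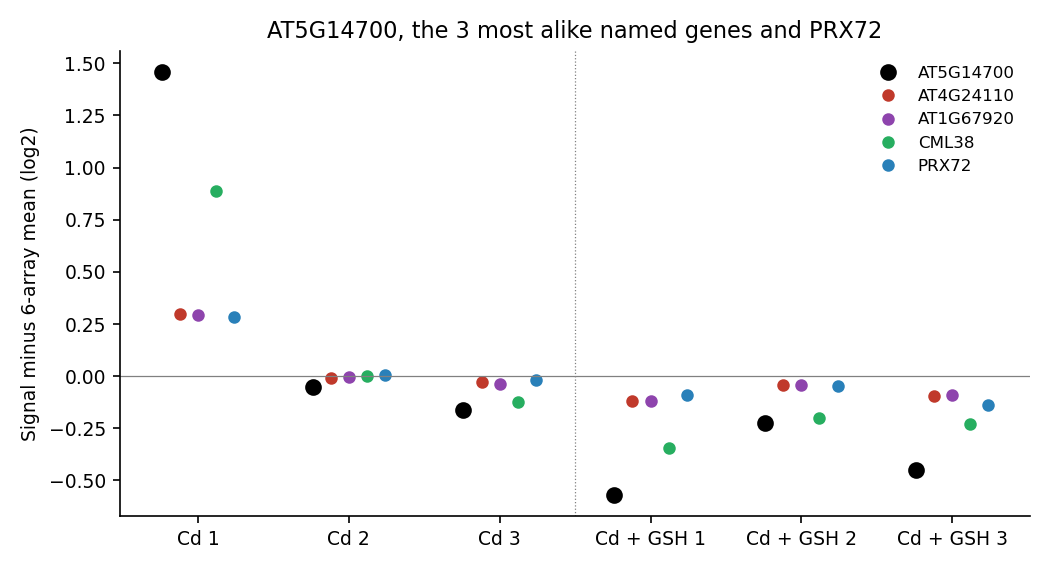
Log2 signal of AT5G14700, its 3 most alike named genes and PRX72 on each array, each as the deviation from that gene's mean over the 6 arrays; points are offset sideways for legibility. Each of the 5 genes is highest on Cd replicate 1, and AT5G14700 deviates most there. For the 3 most alike genes this follows from how they were picked. PRX25, the other varying gene of the pathway lists, is not drawn and was highest on Cd plus GSH replicate 3.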

How the data were processed

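One array was hybridised per root sample, with biotin-labelled cRNA made from 100 ng of total RNA, per the labels' protocols. The authors deposited 1 processed value per probe set and array, read here as log2 signal from its range, 5.20 to 11.40 over the tested probe sets. The submitters' processing notes name R 2.7.2. Background correction, normalisation and summary by the authors are not given in the sources used here, nor are scan dates, so no batch could be tested. No further normalisation was applied.

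All 6 value columns were mapped to samples. Of 22810 probe sets, 64 controls were kept apart. The annotation gave 1 gene for 13513 of the others. List genes were matched by exact symbol or locus, the brightest probe set standing for a gene. With limma 3.58.1 in R 4.3.3, Cd plus GSH was compared with Cd over the 2428 probe sets ranging by over 0.01, adjusting by Benjamini-Hochberg, with calls at 0.05. The fit was tested on simulated data. Members, lists and tests were chosen with earlier results of these data known. Named genes were all members, every varying list gene and the 3 most alike genes of each varying member. The smallest p that exact permutation of 3 arrays against 3 allows is 0.1, so no such test is reported. P-values measure the spread between the samples the labels call biological replicates, whose number sets the precision. Alternatives covered the probe sets in the fit, normalisation, a floor, the variance model, the replicate block and leaving out each array.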

Additional observations from a re-analysis of the deposited data

How the results depend on the processing

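The difference of AT5G14700 was negative and that of CCR2 positive under each of the 11 alternatives run on each, but several could not change the sign. The groups of AT5G14700 did not overlap, so leaving out any array had to keep its difference negative. Averaging probe sets and the replicate block could change neither difference, with 1 probe set per gene and equal groups. No difference moved by more than 1 SD of the replicates, but for AT5G14700 that SD, 0.65, itself includes Cd replicate 1. For AT5G14700 leaving out arrays gave -1.12 to -0.30, and for CCR2 0.0080 to 0.027. The constant genes AT2G02400 and AT1G76470 took on differences of 0.012 each with median centring and 0.0016 and 0.0006 with quantile normalisation. The count of 0 called probe sets stayed 0 with median centring, the intensity trend with robust estimation and the replicate block. It became 42 (26 higher, 16 lower) over all 22746 probe sets, where the constant ones enter. It was 5 over the 1516 ranging by over 0.1, 2 of 1214 without the dimmer ones and 3 with quantile normalisation. The cause of these changes was not tested. Leaving out arrays gave 0 to 13, the 13 without Cd replicate 3. Groups did not overlap in 454 probe sets with quantile normalisation, 516 with median centring, 340 with a range over 0.1, and 643 to 756 with an array left out, an alternative chosen after seeing the data in which fewer arrays have to separate. Leaving out arrays was also added for PRX72, PRX25, AT4G24110, AT1G67920 and CML38, and none passed the adjusted threshold. None changed sign, but the groups of all but PRX25 did not overlap, so for those the sign was fixed. Deviations of same-numbered arrays correlated at -0.11, -0.21 and 0.13, and 3 arrays per group cannot settle any pairing. With the replicate block AT5G14700 was again at -0.83 (SE 0.47) and CCR2 at 0.016 (SE 0.023), and 301 probe sets had an unadjusted p under 0.05.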
